A study of Mus musculus with 6 samples.

Results

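The serpin genes Serpina3g, Serpina3f, Serpina3n, Serpinb9, Serpinb6a and Serpinb6b were followed in 6 RNA libraries of mouse myeloid cells. They are 6 of the 33 genes whose symbols start with Serpin among the 17382 genes of the deposited table, taken by symbol, and all 6 were found there. The members were chosen by the measured values of these libraries, with the levels and group differences of serpin genes known, so the differences between the groups are given for the 6 as descriptions, without a test.

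Serpins are protease inhibitors that act as baits: the target protease cuts an exposed loop of the serpin, which then folds and traps the enzyme. In the mouse, the a3 branch is a cluster of duplicated genes. Serpina3g, also called Spi2A, inhibits lysosomal cysteine cathepsins that reach the cytosol and is known from activated macrophages and T cells, and Serpina3n is a secreted inhibitor of granzyme B. The b branch stays inside the cell. Mouse Serpinb9, or Spi6, inhibits granzyme B and protects cytotoxic and antigen-presenting cells from their own or incoming granules. Serpinb6b inhibits granzyme A in the mouse, and the human counterpart of Serpinb6a inhibits cathepsin G.

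The series holds 3 libraries labelled CKO, from C57BL/6 mice aged 2 months with both PD-L1 alleles floxed and lysozyme-Cre, and 3 labelled WT, from littermates that carry the floxed alleles without Cre. Cd274 encodes PD-L1, which inhibits T cells through PD-1, and lysozyme-Cre is active mainly in myeloid cells. Marrow cells of both groups were grown for 3 days in 40 ng/mL M-CSF, and total RNA was sequenced. The level of Cd274, as TPM (reads per gene length, scaled to 1000000 per library), was 19.3, 19.2 and 29.2 in the libraries labelled CKO and 17.9, 15.5 and 23.7 in WT. It was thus not lower in libraries labelled CKO. The floxed exons are not named in the labels, so a value for the whole gene does not check the labels.

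Library depth was 52.4 to 77.3 in units of 1000000 reads. By symbol, 9 of 10 myeloid markers were found, all of them in every library, among them Csf1r, the M-CSF receptor, with 815 to 1448 TPM in libraries labelled CKO and 1042 to 1525 TPM in WT. The most abundant of them, Lyz2, had 17229 ± 3464 TPM in libraries labelled CKO and 31519 ± 7665 TPM in WT (SD, n = 3 each). Lyz2 is a lysozyme gene, and only libraries labelled CKO carry lysozyme-Cre. Whether the Cre allele bears on its level was not tested, so Lyz2 is not read as a measure of myeloid cells. The largest share of the variance among libraries did not follow the labels: the first principal component of all tested genes held 44.3% of it and set CKO 1, CKO 2 and WT 3 on its negative side and CKO 3, WT 1 and WT 2 on its positive side. In a bulk culture, fewer cells of a type and less RNA per cell cannot be told apart.

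The members differed widely in level. Serpinb6a came first in every library, followed by Serpinb9. Serpinb6b and Serpina3g were next, and their order depended on the group: in libraries labelled CKO, Serpinb6b had 7.41 ± 1.25 TPM and Serpina3g 8.72 ± 3.98 TPM (SD, n = 3), which overlap, whereas in WT Serpinb6b had 7.65 ± 2.57 TPM and Serpina3g 1.36 ± 0.70 TPM (SD, n = 3), which do not. Serpina3f was below both, and Serpina3n was near 0 throughout.

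**Figure D1:**
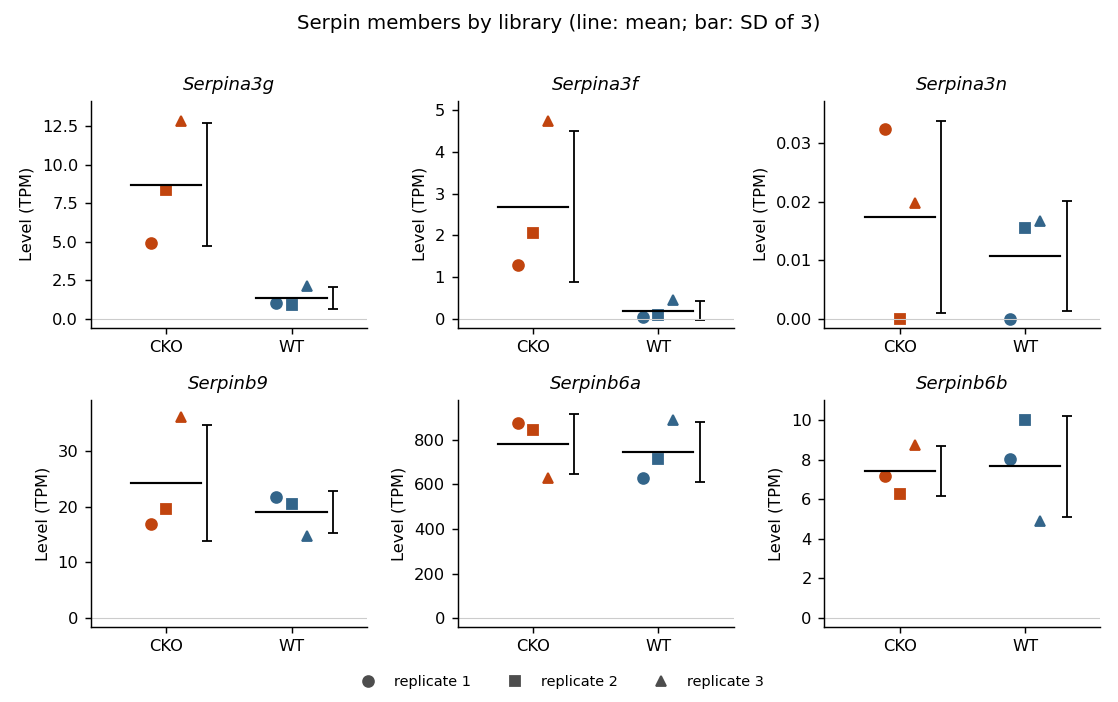
Level of each member in TPM (vertical axis, a separate scale per panel) in the 3 libraries labelled CKO and the 3 labelled WT; symbols mark the replicate number, lines the mean and bars the SD of 3 libraries. Serpina3g and Serpina3f lay higher in each library labelled CKO than in any WT library, while the other members overlapped between the groups.

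Serpina3g was higher in every library labelled CKO than in any WT library. Its level was 4.93, 8.36 and 12.9 TPM in CKO 1, 2 and 3, against 1.01, 0.907 and 2.16 TPM in WT 1, 2 and 3. The highest WT library, WT 3, remained below CKO 1, the lowest of the other group. These levels rest on 295, 463 and 631 reads in libraries labelled CKO and on 43, 57 and 125 reads in WT. The ratio of the mean levels was 6.42, with 4.89 to 9.12 when a library was left out, and the difference of mean log2(TPM + 0.1), which understates the change of low genes, was 2.59 ± 0.44 (SE). Among libraries of the negative side of the first component the difference was 1.53, and on the positive side 3.62.

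Serpina3f, the neighbouring paralogue, was also higher in every library labelled CKO than in any WT library, at a lower level. It had 1.28, 2.05 and 4.73 TPM in CKO 1, 2 and 3, and 0.0412, 0.0842 and 0.458 TPM in WT 1, 2 and 3. WT 1 and WT 2 held only 2 and 6 reads of it and WT 3 held 30, while libraries labelled CKO held 87, 129 and 263. The ratio of the means was 13.8 and the log2 difference 3.32 ± 0.65 (SE). The ratio depended on single libraries: it was 8.59 without CKO 3 and 42.9 without WT 3, which leaves WT with 2 and 6 reads. That difference was 1.63 on the negative and 4.90 on the positive side of the first component, and with a pseudocount of 1 it was 1.53, against 2.00 for Serpina3g, so which of the genes had the larger log2 difference depended on the pseudocount. Serpina3f reached the filter of 0.1 TPM in all 3 libraries labelled CKO and in WT 3 alone of the other group, so it was tested because it was high in libraries labelled CKO.

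Both genes had their highest value in CKO 3 and, within WT, in WT 3. Relative to Serpina3g, Serpina3f had a larger share in libraries labelled CKO: its TPM, a level per length, was 26.0%, 24.6% and 36.8% of that of Serpina3g there, and 4.10%, 9.29% and 21.2% in WT 1, 2 and 3. These shares did not overlap between the groups, but those of WT 1 and WT 2 rest on 2 and 6 reads of Serpina3f. WT 3, with 30 reads of it, was the closest to the libraries labelled CKO. Whether the shares differ by more than counting error was not tested.

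Of the 5 members that passed the filter, the groups did not overlap for 2, Serpina3g and Serpina3f; over all 13722 tested genes, 2.84% lay higher in libraries labelled CKO without overlap. The authors' deposited table calls 42 genes, or 0.242% of its 17382, higher in libraries labelled CKO at an adjusted p under 0.05, and Serpina3g and Serpina3f are among them, with log2 fold changes of 2.67 and 3.74 in the authors' deposited table. These values were in view when the members were chosen, and nothing is read from the counts. In the limma test over all genes, 0 genes passed in either direction, with 299, or 2.18% of those tested, at an unadjusted p under 0.05. With limma-voom on recovered reads, 0 passed and 308 had an unadjusted p under 0.05.

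Serpina3g and Serpina3f lie in a serpin cluster of chromosome 12 whose other Serpina3 genes were lower in libraries labelled CKO than these 2. In mm10, the build named in the submitters' processing notes, the deposited table puts Serpina3f at chromosome 12 from 104214544 to 104221129 and Serpina3g from 104214544 to 104241934, both on the plus strand. The 2 entries thus begin at the same base, whereas RefSeq for GRCm38.p6 starts Serpina3g at 104236147, beyond the end of Serpina3f. The sources used here do not say how reads in the overlap were assigned. The length by which the table's TPM values were divided can be read from reads and TPM together: it was 2017 bases for Serpina3g and 2285 bases for Serpina3f, close to the 2105 and 2290 bases of their own exons in GENCODE M21.

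Reads can also be shared by near-identical copies. Of all 50-base stretches of the Serpina3g transcripts in GENCODE M21, 15.5% occur in transcripts of another gene, most often in Serpina3h, with 8.89%. For Serpina3f the share was 10.6%, most often with Serpina3g, at 6.03%. Serpina3h had 0 reads in each library labelled CKO and 0, 2 and 1 reads in WT. The part of shared reads in the level of Serpina3g was not tested. Serpina3b, upstream in the cluster, had 0.755 ± 0.103 TPM in libraries labelled CKO and 1.08 ± 0.25 TPM in WT (SD, n = 3 each). Of the 7 Serpina3 genes in the table, 4 stayed under 0.05 TPM in every library.

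**Figure D2:**
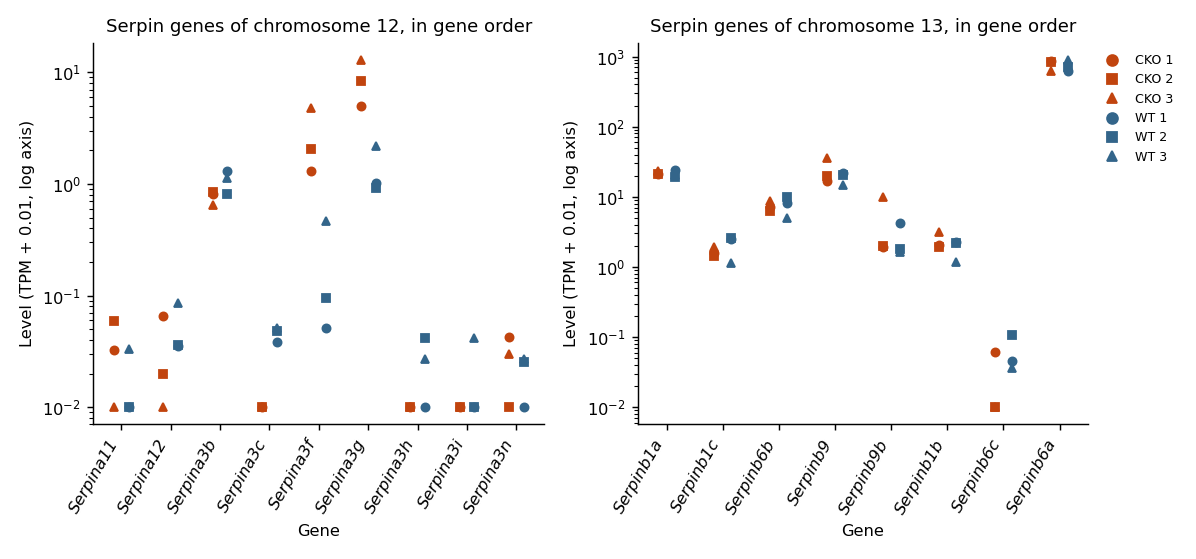
Levels of the serpin genes of chromosomes 12 and 13 in gene order (horizontal axis), as TPM + 0.01 on a log axis, with libraries labelled CKO to the left of WT for each gene; symbols mark the replicate number. On chromosome 12 Serpina3g had 4.93 to 12.9 TPM in libraries labelled CKO and 0.907 to 2.16 TPM in WT, and on chromosome 13 Serpinb6a stands far above its neighbours.

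Serpina3n, the best known secreted member of the cluster in the mouse, was near the limit of detection. It lies 165 kb downstream of Serpina3g, from 104406708 to 104414329 on the plus strand. It had 2, 0 and 1 reads in CKO 1, 2 and 3, and 0, 1 and 1 reads in WT 1, 2 and 3, none of which exceeds the 3 reads that a count of 0 allows. No fold is given, and the gene did not pass the filter. In the same libraries Serpina3g had up to 631 reads.

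The stretches before the start sites of the 3 a3 members are related in sequence and are printed because 2 of these genes separated the groups and the other was near 0. They are RefSeq windows of GRCm38.p6, 300 bases each, from 250 before to 50 after an annotated start site, all on the plus strand: chr12:104235897-104236196 for Serpina3g, chr12:104214294-104214593 for Serpina3f and chr12:104406458-104406757 for Serpina3n. Capitals mark the letters TTCNNNGAA, the gamma-activated site of interferon-responsive promoters, and in Serpina3n the 9 bases that align with it.
Serpina3g: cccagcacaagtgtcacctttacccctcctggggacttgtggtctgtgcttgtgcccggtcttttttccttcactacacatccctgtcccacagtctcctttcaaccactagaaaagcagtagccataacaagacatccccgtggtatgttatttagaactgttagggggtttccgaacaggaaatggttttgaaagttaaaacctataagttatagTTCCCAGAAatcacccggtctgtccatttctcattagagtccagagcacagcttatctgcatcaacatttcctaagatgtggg
Serpina3f: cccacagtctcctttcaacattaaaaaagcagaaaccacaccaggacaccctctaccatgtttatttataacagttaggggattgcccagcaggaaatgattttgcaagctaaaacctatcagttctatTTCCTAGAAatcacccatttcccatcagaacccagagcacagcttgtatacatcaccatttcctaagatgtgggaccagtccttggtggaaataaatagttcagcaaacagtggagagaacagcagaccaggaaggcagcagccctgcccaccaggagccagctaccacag
Serpina3n: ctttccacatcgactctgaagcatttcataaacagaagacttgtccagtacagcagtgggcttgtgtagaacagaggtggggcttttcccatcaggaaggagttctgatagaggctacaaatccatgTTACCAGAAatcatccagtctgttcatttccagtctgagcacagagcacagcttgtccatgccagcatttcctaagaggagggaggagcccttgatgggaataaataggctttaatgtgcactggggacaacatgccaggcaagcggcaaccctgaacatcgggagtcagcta

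In a local alignment, the windows of Serpina3g and Serpina3f were identical at 83.7% of 202 aligned bases, and those of Serpina3g and Serpina3n at 81.6% of 136. The letters TTCNNNGAA occurred in the Serpina3g window as TTCCCAGAA and in the Serpina3f window as TTCCTAGAA, while the aligned bases of Serpina3n, TTACCAGAA, do not match them. The match begins 121 bases before the start site of the printed Serpina3f window and 210 before that of its other RefSeq window. In Serpina3g it begins 33 bases before the RefSeq start and 138 before that of a GENCODE M21 transcript. The same letters, which read alike on both strands, occurred in 8.33% of 32544 promoter windows of this length, so a match is common and is given as a description.

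Serpinb9, the inhibitor of granzyme B, differed less between the groups than within them. Its position in the deposited table is chr13:33004541-33017955, plus strand. Its level was 16.9, 19.5 and 36.1 TPM in CKO 1, 2 and 3, and 21.8, 20.5 and 14.6 TPM in WT 1, 2 and 3. CKO 3 stood above all others and WT 3 below all others, and CKO 1 and CKO 2 lay within the range of WT. The log2 difference was 0.29 ± 0.30 (SE), and without CKO 3 it was -0.04. It was 0.31 on the negative and 0.77 on the positive side of the first component, and with a term for the side in the fit it was 0.54 ± 0.12 (SE). The side was read from the values of all genes in these same libraries, so the smaller SE is a description and not a test.

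The neighbouring Serpinb9b, of the same subfamily, had a similar outlying library. It had 1.91, 1.95 and 10.0 TPM in CKO 1, 2 and 3 and 4.19, 1.77 and 1.59 TPM in WT 1, 2 and 3. Relative to Serpinb9 it was 11.3%, 9.98% and 27.7% in libraries labelled CKO, and 19.2%, 8.62% and 10.9% in WT. The 2 genes share 0.378% of the 50-base stretches of Serpinb9.

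Serpinb9 and Serpinb6a are printed because their windows hold letters read by interferon regulatory factors. The RefSeq windows are chr13:33004291-33004590 on the plus strand for Serpinb9 and chr13:34002745-34003044 on the minus strand for Serpinb6a, written in the sense of the gene. Capitals mark GAAA, any 2 bases, GAAA on either strand and TTCNNNGAA, which overlap in the first marked run of Serpinb6a.
Serpinb9: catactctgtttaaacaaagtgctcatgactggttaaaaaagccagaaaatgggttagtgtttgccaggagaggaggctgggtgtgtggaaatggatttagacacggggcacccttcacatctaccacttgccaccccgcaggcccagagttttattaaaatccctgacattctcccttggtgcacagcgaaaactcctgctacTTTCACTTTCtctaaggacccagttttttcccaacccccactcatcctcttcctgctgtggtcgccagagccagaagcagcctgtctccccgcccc
Serpinb6a: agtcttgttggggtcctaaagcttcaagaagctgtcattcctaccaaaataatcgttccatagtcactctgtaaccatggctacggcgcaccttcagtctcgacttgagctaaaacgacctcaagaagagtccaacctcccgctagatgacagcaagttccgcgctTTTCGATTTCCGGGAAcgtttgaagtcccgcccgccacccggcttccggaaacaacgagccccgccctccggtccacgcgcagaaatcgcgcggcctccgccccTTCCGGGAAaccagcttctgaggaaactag

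The interferon regulatory factor letters lie in Serpinb9 46 bases before the start site, on the opposite strand, and occurred on either strand in 3.45% of the 32544 windows. The printed Serpinb6a window held 1 match to them and 2 to TTCNNNGAA, 1 of these after the start site. The other RefSeq window of Serpinb6a, chr13:33936034-33936333, held neither. The Serpinb6b window also held neither. The interferon regulatory factor letters were in none of the Serpina3g, Serpina3f and Serpina3n windows, so among the members they were found only in Serpinb9 and Serpinb6a. TTCNNNGAA was found in Serpina3g, Serpina3f and Serpinb6a. Whether either set of letters bears on the levels of these genes was not tested.

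Serpinb6a was the most abundant serpin of these cells by far. Its position is chr13:33917918-34002794, minus strand, and it ranked between 123 and 193 among all genes of a library. Its level was 874, 846 and 627 TPM in CKO 1, 2 and 3, and 630, 716 and 891 TPM in WT 1, 2 and 3. The groups overlapped fully, and the log2 difference was 0.07 ± 0.18 (SE). Instead, the 3 libraries of the negative side of the first component held 846 to 891 TPM, above the 627 to 716 TPM of the positive side. That side was itself read from the values of all genes, so the ordering is a description. Serpinb6a made up 81.3% to 89.4% of the summed TPM of all 33 serpin genes in libraries labelled CKO and 84.8% to 90.3% in WT.

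Serpinb6b, the granzyme A inhibitor, also overlapped between the groups. It lies 25.5 kb before Serpinb9, from 32965513 to 32979037 on the plus strand. It had 7.19, 6.28 and 8.75 TPM in CKO 1, 2 and 3, and 8.03, 10.0 and 4.92 TPM in WT 1, 2 and 3, on 262 to 579 reads per library. The lowest value was that of WT 3 and the highest that of WT 2. The log2 difference was -0.00095 ± 0.27 (SE). Relative to Serpinb6a it was 0.823%, 0.742% and 1.40% in CKO 1, 2 and 3 and 1.27%, 1.40% and 0.553% in WT 1, 2 and 3, higher on the positive side of the first component in both groups.

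The other serpin genes gave no call, except for 1 when both CKO 3 and WT 3 were left out, where label and side of the first component coincide. Of the 27, 17 passed the filter, 7 with a positive and 10 with a negative log2 difference. Of these 17, 0 passed the limma test over all genes (Benjamini-Hochberg adjusted p under 0.05). At an unadjusted p under 0.05 there were 2 of them, against 2.18% of all tested genes. The median log2 difference of the 17 was -0.12, against 0.00 over all tested genes, of which 51.1% were positive. Of the 11 that reached 1 TPM in every library of either group, 5 had a positive and 6 a negative difference. By mean level the highest were Serpinb8, with 27.3 ± 1.3 TPM in libraries labelled CKO and 25.6 ± 2.3 TPM in WT, and Serpinb1a, an inhibitor of neutrophil serine proteases, with 21.8 ± 1.1 TPM in libraries labelled CKO and 21.2 ± 2.3 TPM in WT (SD, n = 3 each).

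Serpine2, an inhibitor of thrombin and plasminogen activators, had 5.04 ± 0.15 TPM in libraries labelled CKO and 6.27 ± 0.61 TPM in WT (SD, n = 3 each). Its log2 difference was -0.30 ± 0.12 (SE). Of the 17 tested serpins outside the 6 members, it was the only 1 whose groups did not overlap. Over all tested genes, 5.12% did not overlap in either direction. Serpinf1, which encodes the secreted factor PEDF, had 3.62 ± 0.93 TPM in libraries labelled CKO and 3.44 ± 0.75 TPM in WT (SD, n = 3 each).

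**Figure D3:**
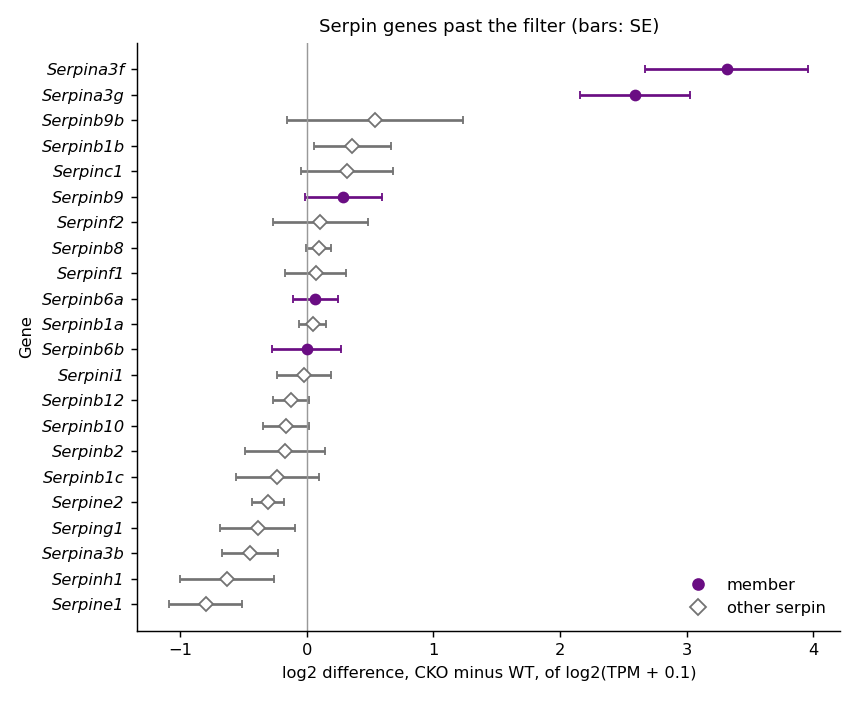
Difference of mean log2(TPM + 0.1), libraries labelled CKO minus WT (horizontal axis), for the 22 serpin genes past the filter, with bars of 1 SE; filled circles are the members and open diamonds the other serpins. Serpina3f at 3.32 and Serpina3g at 2.59 lie apart from the rest, which fall between -0.80 and 0.54.

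Proteases of the classes that these serpins inhibit were present at very different levels. The 3 highest of the 10 listed lysosomal cysteine proteases were abundant. They are named for their level, and which of them a member inhibits was not tested. Ctsb had 7861 ± 642 TPM in libraries labelled CKO and 7763 ± 753 TPM in WT, and Ctss 3657 ± 438 TPM in libraries labelled CKO and 3168 ± 747 TPM in WT (SD, n = 3 each). Ctsz was next, with 1604 ± 90 TPM in libraries labelled CKO and 1479 ± 154 TPM in WT (SD, n = 3 each). Of the 10 genes of that list 9 were above and 1 below WT by log2 difference (median 0.11). In the limma test 0 passed, with 1 at an unadjusted p under 0.05, against 2.18% of all tested genes. The groups were apart for 1 of the 10, Ctsw, a protease of cytotoxic lymphocytes. It was rare, with 9, 13 and 9 reads in CKO 1, 2 and 3 and 2, 3 and 5 reads in WT 1, 2 and 3. The reads of WT 1 and WT 2 do not exceed the 3 that a count of 0 allows. Over all tested genes 5.12% did not overlap in either direction.

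Neutrophil serine proteases, the targets of the intracellular serpins in granulocytes and monocytes, overlapped between the groups. Elane had 69.0 ± 7.9 TPM in libraries labelled CKO and 67.6 ± 14.4 TPM in WT, Prtn3 had 50.5 ± 11.8 TPM in libraries labelled CKO and 46.7 ± 9.5 TPM in WT, and Ctsg had 35.0 ± 4.9 TPM in libraries labelled CKO and 35.3 ± 6.3 TPM in WT (SD, n = 3 each). Of the 3, 0 passed the limma test, with 0 at an unadjusted p under 0.05.

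Granzymes were rare. Of 9 listed genes 4 are in the table and 3 passed the filter. Gzmb, the target of Serpinb9 and Serpina3n, had 12, 11 and 17 reads in CKO 1, 2 and 3 and 0, 1 and 1 reads in WT 1, 2 and 3, in libraries where Serpinb9 had 1424 to 2979 reads. Gzmk had 0.213, 0.461 and 0.468 TPM in libraries labelled CKO and was listed at 0 in each WT library, and Gzmm had 0.799 ± 0.108 TPM in libraries labelled CKO and 0.637 ± 0.129 TPM in WT (SD, n = 3 each). Gzma, the target of Serpinb6b, had 0.0385, 0.125 and 0.141 TPM in libraries labelled CKO and was listed at 0 in WT. Its levels in CKO 1, 2 and 3 rest on 1, 3 and 3 reads, none of which exceeds the 3 reads that a count of 0 allows. Of the 3 granzymes tested, 0 passed the limma test, with 2 at an unadjusted p under 0.05, against 2.18% of all tested genes. Gzmb and Gzmk reached the filter of 0.1 TPM only in libraries labelled CKO, so they were tested because they were high there. Nothing is read from that count.

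Serpina3g and Serpinb9 are also expressed by activated T and NK cells, and markers of those cells were counted. Of 15 markers all are in the table and 11 passed the filter, 10 above and 1 below WT by log2 difference. In the limma test 0 passed, with 9 at an unadjusted p under 0.05, against 2.18% of all tested genes. Cd3e, Il2rb and Gzmb reached the filter of 0.1 TPM only in libraries labelled CKO, so these markers were tested because they were high there. Nothing is read from that count. The 1 below WT was Cd2, an adhesion molecule of T and NK cells, at -0.29 ± 0.20 (SE). The summed level was 8.85 to 13.2 TPM in libraries labelled CKO and 5.58 to 6.94 TPM in WT. Nkg7 made up 3.99 to 5.32 TPM of that sum in libraries labelled CKO and 2.53 to 3.72 TPM in WT. Cd3e, a T cell receptor subunit, had 14, 17 and 10 reads in CKO 1, 2 and 3 and 2, 3 and 0 reads in WT 1, 2 and 3. No marker was at 0 in every library, but Gzma was at 0 in each WT library and Ncr1 was under 0.1 TPM throughout. Their part in the levels of Serpina3g and Serpina3f was not tested.

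Markers of other cell types were summed in the same way. The summed level of 10 neutrophil markers was 7076 to 8150 TPM in libraries labelled CKO and 5852 to 8496 TPM in WT, with 6 positive and 4 negative differences. That of 7 dendritic cell markers was 415 to 576 TPM in libraries labelled CKO and 385 to 433 TPM in WT, of which Bst2, an interferon-inducible gene, made up 402 to 567 TPM in libraries labelled CKO and 369 to 420 TPM in WT. Of the 6 dendritic cell markers tested 2 were above and 4 below WT, with a median log2 difference of -0.07. The summed level of 6 mast cell and basophil markers was 9.16 to 11.1 TPM in libraries labelled CKO and 7.22 to 11.5 TPM in WT. All 8 B cell markers had a negative difference, with sums of 58.0 to 98.6 TPM in libraries labelled CKO and 92.4 to 119 TPM in WT, and 7 stromal markers summed to 0.608 to 0.657 TPM in libraries labelled CKO and 0.693 to 1.49 TPM in WT.

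The genes most like Serpina3g over the 6 libraries were interferon-inducible GTPases. Likeness was measured as the root mean square difference of log2(TPM + 0.1), each gene centred on its own mean. The search covered 10675 genes with a mean of at least 1 TPM, leaving out, by symbol, unnamed genes, small RNAs and pseudogenes. For Serpina3g the closest were Gbp2, at 0.160, Gbp6, at 0.235, and Tgtp2, at 0.404, where the median over the genes searched was 1.42. The members were chosen with their group differences known, and those differences enter this measure and its median. Closeness to other genes that were higher in libraries labelled CKO is therefore only a description. Gbp2, a guanylate-binding protein that coats vacuoles of intracellular pathogens, had 43.4, 62.0 and 95.1 TPM in CKO 1, 2 and 3 and 9.37, 6.76 and 20.9 TPM in WT 1, 2 and 3. It kept the order of Serpina3g in libraries labelled CKO and shared its highest WT library, WT 3.

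Serpina3f was closest to Iigp1, an immunity-related GTPase, at 0.287, then to Serpina3g, at 0.485, and to Gbp2, at 0.530. The median over the genes searched was 1.85. With a pseudocount of 1, 0 of these 3 remained among its 3 closest genes. Iigp1 had 23.7, 40.2 and 104 TPM in CKO 1, 2 and 3 and 2.92, 2.50 and 6.97 TPM in WT 1, 2 and 3. Both it and Serpina3f were highest in CKO 3. Seen from Serpina3g, Serpina3f was number 5 in order of closeness.

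The b serpins had other companions. Serpinb9 was closest to Clec4e, the receptor Mincle, at 0.0492, to Stx3 at 0.0925 and to Psph at 0.0966, with a median of 0.414. Clec4e had 59.0, 65.9 and 125 TPM in CKO 1, 2 and 3 and 76.9, 67.7 and 54.0 TPM in WT 1, 2 and 3. Serpinb6a was closest to Tceanc2, Supt4a and Tgfbr1, at 0.0207 to 0.0239, and Serpinb6b to Mllt4, Nhp2 and Cdc7, at 0.0609 to 0.0796, with medians of 0.255 and 0.334. Cdc7, a kinase of DNA replication, had 27.4, 27.4 and 34.8 TPM in CKO 1, 2 and 3 and 31.6, 39.0 and 21.8 TPM in WT 1, 2 and 3. For Serpina3n, with at most 2 reads in a library, likeness reflects the pseudocount, and no gene is named.

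**Figure D4:**
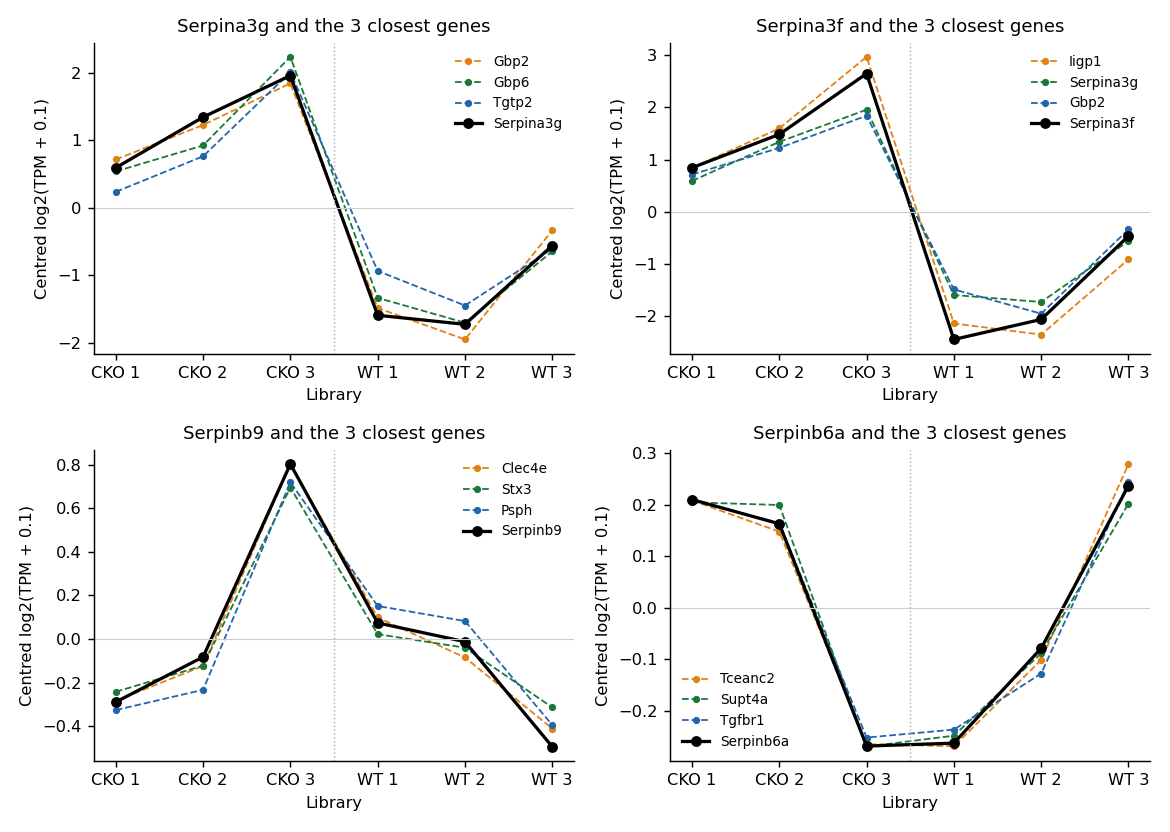
Centred log2(TPM + 0.1) (vertical axis) of 4 members in black and of the 3 genes closest to each in dashed colours, in the 6 libraries (horizontal axis, CKO 1 to 3 left of WT 1 to 3); lines join libraries only to make the pattern visible. Serpina3g and Serpina3f lie above their mean in each library labelled CKO, whereas Serpinb9 is highest in CKO 3 and Serpinb6a is lowest in CKO 3 and WT 1.

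Among the 5 members past the filter the difference was smallest between Serpinb9 and Serpinb6b, at 0.318, and Serpina3g differed from Serpinb9 by 1.28. Serpina3g and Serpina3f, at 0.485, were closer to each other than either was to any other member.

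The interferon gamma response list, drawn up with earlier results of these data known, held 20 genes, all tested and all above WT by log2 difference (median 0.76, against 0.00 over all genes). In 18 of the 20 each library labelled CKO exceeded each WT library, as in 2.84% of all tested genes. In the limma test over all genes 0 passed, with 18 at an unadjusted p under 0.05, against 2.18% of all tested genes. Irf1, an interferon-inducible transcription factor, had 70.2, 70.6 and 82.5 TPM in CKO 1, 2 and 3 and 31.4, 33.3 and 53.9 TPM in WT 1, 2 and 3. Its log2 difference was 0.95 ± 0.21 (SE). As in Serpina3g, CKO 3 was the highest of its group and WT 3 the highest of WT.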

How the data were processed

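The authors deposited a table with a TPM value per gene and library, per the file headers and the values, which sum to 1000000 in each library. It also holds the authors' log2 fold change, mean log2 CPM, likelihood ratio score and p-value per gene; positive fold changes are higher in libraries labelled CKO, from the values. Per the submitters' processing notes, the build was mm10 and the tools were edgeR, featureCounts, Subread, TopHat2 2.0.12, Picard 1.127 and FastQC 0.11.2. The sources used here do not give the counting options or the strand setting.

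The fit used log2(TPM + 0.1) of the 13722 genes that reached 0.1 TPM in 3 or more libraries. Groups were compared two-sided by limma 3.58.1 with trend (R 4.3.3) and Benjamini-Hochberg adjustment. Whole reads were recovered from ratios of TPM values, within 0.01 of a read for 99.6% of 94034 values above 0, with the scale set from the authors' mean log2 CPM; for 362 genes that mean also set the common factor. Depth was 52.4 to 77.3 in units of 1000000 reads; a count of 0 allows up to 3 reads, for counting error only. The fit and the recovery were tested on simulated data. The series calls the samples biological triplicates without naming mice, so p-values measure the spread between these samples.

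Lengths implied by the table were scaled on 852 genes with 1 GENCODE M21 transcript. Alternatives were other pseudocounts, filters and tests, a replicate block, a term for the side of the first principal component, and libraries left out. Members, lists and the rule for named genes (the members, the most abundant genes of each list with Gzmb and Irf1, and the 3 genes closest to each member) were chosen with earlier results of these data known. Bst2, Cd2, Cd3e, Ctsw, Csf1r, Il2rb, Nkg7, Serpina3b, Serpina3h and the per-library values of Serpinb9b and Gzma were named after their values were seen. A gene that the rule also names is not reported here.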

Additional observations from a re-analysis of the deposited data

How the results depend on the processing

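Of 16 alternatives, 15 called 0 genes in either direction, as did the reported test; limma-voom with no filter, 1 of the 15, was chosen after seeing the data. Without both CKO 3 and WT 3, 738 genes were higher and 758 lower in libraries labelled CKO, but label and side of the first component then coincide. Serpina3g kept a positive log2 difference in 16 of 16 alternatives (2.00 to 2.96) and Serpina3f in 15 of 15 (1.53 to 4.15); with both libraries left out Serpina3f failed the filter. With single libraries left out their ranges were 2.26 to 2.96 and 2.82 to 3.92. Serpinb9 changed sign in 2 of 16 alternatives, without CKO 3 (-0.04) and without both libraries (-0.22); Serpinb6a and Serpinb6b, near 0, changed sign in 3 and 5. The ratios of means without single libraries were also chosen after seeing the data. The cause was not tested. The 3 genes closest to Serpina3g shared 2 with those at a pseudocount of 1, while Serpina3f shared 0, Serpinb9 and Serpinb6a 1 each and Serpinb6b 3. With the replicate number as a block, 0 genes were called. Serpina3g then differed by 2.59 ± 0.24 and Serpina3f by 3.32 ± 0.22 (SE). Same-numbered libraries did not deviate together (Pearson r across genes of -0.24, -0.15 and -0.53). The first component, with 44.3% of the variance, enters these correlations, so they cannot decide whether the numbers pair the libraries. Depth limits Serpina3n, granzymes, Ctsw and Serpina3f in WT, which rest on few reads.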
